A study of Homo sapiens with 36 samples.

Results

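The 10 genes described here encode the enzymes that make ceramide and glucosylceramide, together with a regulator of the entry step: SPTLC1, SPTLC2, SPTLC3, KDSR, CERS2, CERS5, CERS6, DEGS1, UGCG and ORMDL3. They are 10 of the 57771 genes in the deposited count table. They were taken by name because SPTLC3 was already known to fall with insulin in normal medium in these data, and the question was whether the other subunits and ceramide enzymes fell with it. The insulin comparison in normal medium therefore chose the genes, and its values are given as a description with no p-value. For SPTLC3 the same holds for each comparison that uses those libraries.

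RNA was sequenced from HepG2-IGF1R-KO cells. HepG2 is an established line from a human liver tumour, and the label says that its IGF1R gene, which encodes the IGF-1 receptor, was knocked out in every group. Cells were kept in insulin-resistant medium or in normal medium. Resistant medium was applied for 72 h and combined glucose at 20 mM, human insulin at 1 nM and 3 fatty acids (oleic, linoleic and palmitic) at 0.5 mM. In each medium they were given 3 nM human insulin for 18 h or left untreated, which makes 4 groups of 9 libraries, 36 in all. The groups are called stimulated and untreated cells of resistant medium and stimulated and untreated cells of normal medium. The labels do not say whether the insulin of the resistant medium was removed before untreated cells were collected, nor whether the line is 1 clone. No unedited line was analysed here, so the gene-level IGF1R values of 77.8 to 134 CPM (counts scaled to a common library size) do not check the edit.

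Sphingolipids begin with serine palmitoyltransferase (SPT), an enzyme of the endoplasmic reticulum that joins serine to an activated fatty acid, usually palmitoyl-CoA. SPTLC1 pairs with a catalytic subunit, SPTLC2 or SPTLC3, and a small subunit, SPTSSA or SPTSSB, tunes which acyl-CoA is accepted. SPTLC3 is known for products of shorter chain than those of SPTLC2. KDSR reduces the first product, ceramide synthases (CERS) attach a second fatty acid, DEGS1 inserts the double bond that gives ceramide, and UGCG adds glucose. ORMDL proteins hold SPT back when ceramide is plentiful, and ceramide is widely studied in liver for its links with insulin resistance.

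SPTLC3 and SPTLC2 are close relatives, so a stretch of both is shown to let the reader see how far reads from the 2 genes can be told apart. The coding sequences of GRCh38, 1659 bases for SPTLC3 and 1689 for SPTLC2, were identical at 1129 of 1638 aligned bases, or 68.9%, and the longest identical run was 20 bases. The stretch below surrounds that run. It covers bases 743 to 892 of the SPTLC3 coding sequence on chromosome 20 and bases 767 to 916 of the SPTLC2 coding sequence on chromosome 14, and 34 of its 150 bases differ. Capitals mark the differing bases.
SPTLC3: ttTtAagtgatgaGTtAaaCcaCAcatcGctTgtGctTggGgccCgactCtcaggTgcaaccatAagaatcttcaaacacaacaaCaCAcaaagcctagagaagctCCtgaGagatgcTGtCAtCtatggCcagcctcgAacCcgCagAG
SPTLC2: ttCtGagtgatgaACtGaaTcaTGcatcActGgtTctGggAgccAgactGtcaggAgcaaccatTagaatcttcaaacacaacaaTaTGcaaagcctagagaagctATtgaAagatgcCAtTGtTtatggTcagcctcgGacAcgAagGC
SPTLC1 was further away, with 58.2% of aligned bases shared with SPTLC3 and no identical run over 11 bases. How the authors' counting split any ambiguous read cannot be checked from the table.

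The libraries were not uniform. Transcripts of stromal marker genes were plentiful in 30 of them but almost missing from 6, namely replicates 1 to 3 of untreated cells in resistant medium and replicates 4 to 6 of stimulated cells in normal medium. The summed level of 20 stromal markers was 254 to 355 CPM in those 6, against 26910 to 84840 CPM elsewhere. COL1A1, a fibrillar collagen, had 0.784 to 1.70 CPM in those 6, against 8071 to 31870 CPM elsewhere. By group, the stromal sum ran from 37790 to 79700 CPM in stimulated and 338 to 84840 CPM in untreated cells of resistant medium, and from 254 to 59870 CPM in stimulated and 26910 to 74900 CPM in untreated cells of normal medium. Hepatocyte markers summed to 32530 to 37490 CPM in the 6 and to 11990 to 29620 CPM in the rest, and albumin, their defining marker, was present at 3133 to 12850 CPM in every library. The endothelial list summed to 0.947 to 4.71 CPM and PTPRC, which defines leukocytes, was at or under 0.433 CPM and at 0 in the 6, while the leukocyte list as a whole summed to 343 to 2449 CPM and the cholangiocyte list to 806 to 1830 CPM. In the 6, 2 of the 20 stromal markers were at 0 throughout. The part of the stromal transcripts in the results below was not tested, and the fold changes and counts below are given with all 36 libraries and, for most, again with the 30. G6PC1, the glucose-releasing enzyme that insulin represses in liver, had a log2 fold change of -5.09 ± 0.32 (SE) with insulin in normal medium and -0.41 ± 0.32 in resistant medium. Resistant medium alone gave -4.37 ± 0.31 in untreated cells (edgeR adjusted p = 8.33e-13). Untreated cells had 0.0616 to 0.566 CPM of it in resistant medium, against 3.11 to 5.20 CPM in normal medium. The insulin effect in resistant medium thus started from a low level. Library totals spanned 26.6M to 116.8M counts. Replicates came in sets of 3 (1 to 3, 4 to 6 and 7 to 9) whose values often lay close together. The titles number the libraries of a group as biological replicates but do not say whether each came from a separate culture, so the p-values measure the spread between these samples.

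Among the 10 genes, SPTLC3 alone had group means more than 2-fold apart. Levels below are CPM scaled by the trimmed mean of M-values (TMM), and 9 libraries stand behind each group. SPTLC3 had a lowest, median and highest level of 12.9, 13.4 and 16.3 CPM in stimulated cells of resistant medium and 11.4, 16.5 and 28.1 CPM in untreated cells of that medium. In normal medium it had 4.04, 7.18 and 12.9 CPM in stimulated cells, against 33.4, 43.4 and 46.5 CPM in untreated cells. Untreated cells in normal medium thus stood above every other library, and stimulated cells in normal medium had the lowest mean, with a range that reached into that of untreated cells in resistant medium. In bulk RNA, fewer cells of a type and less RNA per cell cannot be told apart.

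With insulin in normal medium the mean of SPTLC3 was 5.57-fold lower, 7.47 ± 2.94 CPM against 41.7 ± 4.62 CPM in untreated cells (SD, n = 9 each). The fitted log2 fold change was -2.47 ± 0.19 (SE), and -2.88 ± 0.14 without the 6 libraries low in stromal transcripts. In the labelled batches it was -2.32 (11 April), -2.77 (22 April) and -2.33 (24 May). The 3 stimulated libraries low in stroma had 12.9, 7.18 and 10.7 CPM, and the other 6 had 4.04 to 9.22 CPM.

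In resistant medium, the comparison that shares no library with the one above, insulin gave 14.1 ± 1.27 CPM against 19.0 ± 6.77 CPM in untreated cells. The log2 fold change was -0.43 ± 0.20 (edgeR adjusted p = 0.172), and the ranges overlapped. Replicates 1 to 3 of the untreated group, the ones low in stroma, had 27.8, 28.1 and 27.2 CPM, while replicates 4 to 9 had 11.4 to 16.7 CPM. Over the 30 libraries the log2 fold change was 0.05 ± 0.14 (edgeR adjusted p = 0.973). Within the 11 April and 22 April batches it was -0.59 and -0.51 (edgeR adjusted p = 0.502 and 0.485), and the 24 May batch held no stimulated library of resistant medium.

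SPTLC3 was lower in resistant than in normal medium in untreated cells, and higher in resistant medium in stimulated cells. In untreated cells the mean was 2.19-fold lower, with a log2 fold change of -1.13 ± 0.19 and -1.57 ± 0.13 without the 6 libraries. Within batches that change was -0.81, -1.10 and -1.46, in the order 11 April, 22 April and 24 May. The 2 April batches hold libraries of the same sets of 3 replicates, so they are not separate repeats. In stimulated cells the mean was 1.88-fold higher, with a log2 fold change of 0.91 ± 0.20 and 1.36 ± 0.14 without the 6, and of 0.91 (11 April) and 1.16 (22 April) by batch. Neither comparison had overlapping groups, though in stimulated cells the lowest library of resistant medium, at 12.922 CPM, was barely above the highest of normal medium, at 12.918 CPM. The difference between the insulin effects in resistant and normal medium was 2.05 ± 0.27 on the log2 scale and 2.93 ± 0.19 without the 6 libraries.

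By mean level, SPTLC3 thus ran from untreated cells in normal medium, through both groups of resistant medium, which did not differ beyond their spread, to stimulated cells in normal medium. Counted against the hepatocyte markers of the same library, SPTLC3 had a median of 0.961 and 0.942 counts per 1000 hepatocyte-list counts in stimulated and untreated cells of resistant medium. In normal medium the medians were 0.334 in stimulated and 1.89 in untreated cells, with ranges of 0.195 to 0.527 and 1.69 to 2.22. The 3 untreated libraries of resistant medium that were low in stroma had 0.978 to 1.02 on this scale and the other 6 had 0.816 to 0.943, closer together than on the CPM scale. The 20 hepatocyte markers changed too, so this scale carries their changes. With insulin in normal medium 2 were higher and 4 lower. With resistant medium 1 was higher and 6 lower in untreated cells, and 1 was higher and 15 lower in stimulated cells.

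SPTLC2, the main catalytic subunit, and SPTLC1, the shared subunit, differed far less between the groups. SPTLC2 averaged 115 ± 19.1 and 92.8 ± 26.2 CPM in stimulated and untreated cells of resistant medium, and 98.1 ± 27.7 and 103 ± 21.0 CPM in stimulated and untreated cells of normal medium (SD, n = 9 each). SPTLC1 averaged 79.6 ± 4.98 and 70.4 ± 8.01 CPM in stimulated and untreated cells of resistant medium, and 72.0 ± 10.8 and 66.1 ± 9.58 CPM in stimulated and untreated cells of normal medium. With insulin in normal medium the log2 fold change was -0.10 ± 0.15 for SPTLC2 and 0.10 ± 0.07 for SPTLC1. In resistant medium insulin gave 0.18 ± 0.16 for SPTLC2 and 0.08 ± 0.07 for SPTLC1 (edgeR adjusted p = 0.49 and 0.51). The medium gave SPTLC2 -0.13 ± 0.15 in untreated and 0.15 ± 0.16 in stimulated cells (edgeR adjusted p = 0.59 and 0.501). SPTLC2, over the 30 libraries, lay between -0.13 and 0.06 in these 4 comparisons, and SPTLC1 was 0.06 ± 0.05 and -0.03 ± 0.06 with insulin in normal and in resistant medium. All ranges of these 2 genes overlapped between groups. SPTLC2 was lower in the libraries low in stroma, at 63.2 to 74.3 CPM against 70.1 to 141 CPM in the 30. Without those 6, SPTLC1 was 0.15 ± 0.05 higher on the log2 scale in untreated cells of resistant medium than of normal medium (edgeR adjusted p = 0.0404), a change of 0.10 ± 0.07 that did not pass with all libraries (edgeR adjusted p = 0.366).

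The balance of the 2 catalytic subunits can be read within a library, where no scaling enters. SPTLC3 had a median of 12.2 and 20.2 counts per 100 SPTLC2 counts in stimulated and untreated cells of resistant medium, with ranges of 9.48 to 14.8 and 8.40 to 41.3. In normal medium the median was 6.72 in stimulated cells, with a range of 2.87 to 20.5, against 40.7 in untreated cells, with a range of 27.6 to 66.4. Without the libraries low in stroma the median of stimulated cells in normal medium was 5.12 and that of untreated cells in resistant medium was 15.5. Per kilobase of exon, SPTLC3 averaged 2.28 and 3.08 CPM in stimulated and untreated cells of resistant medium, and 1.21 and 6.76 CPM in stimulated and untreated cells of normal medium. SPTLC2 averaged 14.1 and 11.4 CPM in stimulated and untreated cells of resistant medium, and 12 and 12.6 CPM in stimulated and untreated cells of normal medium, so SPTLC2 transcripts were the more abundant in each group.

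**Figure D1:**
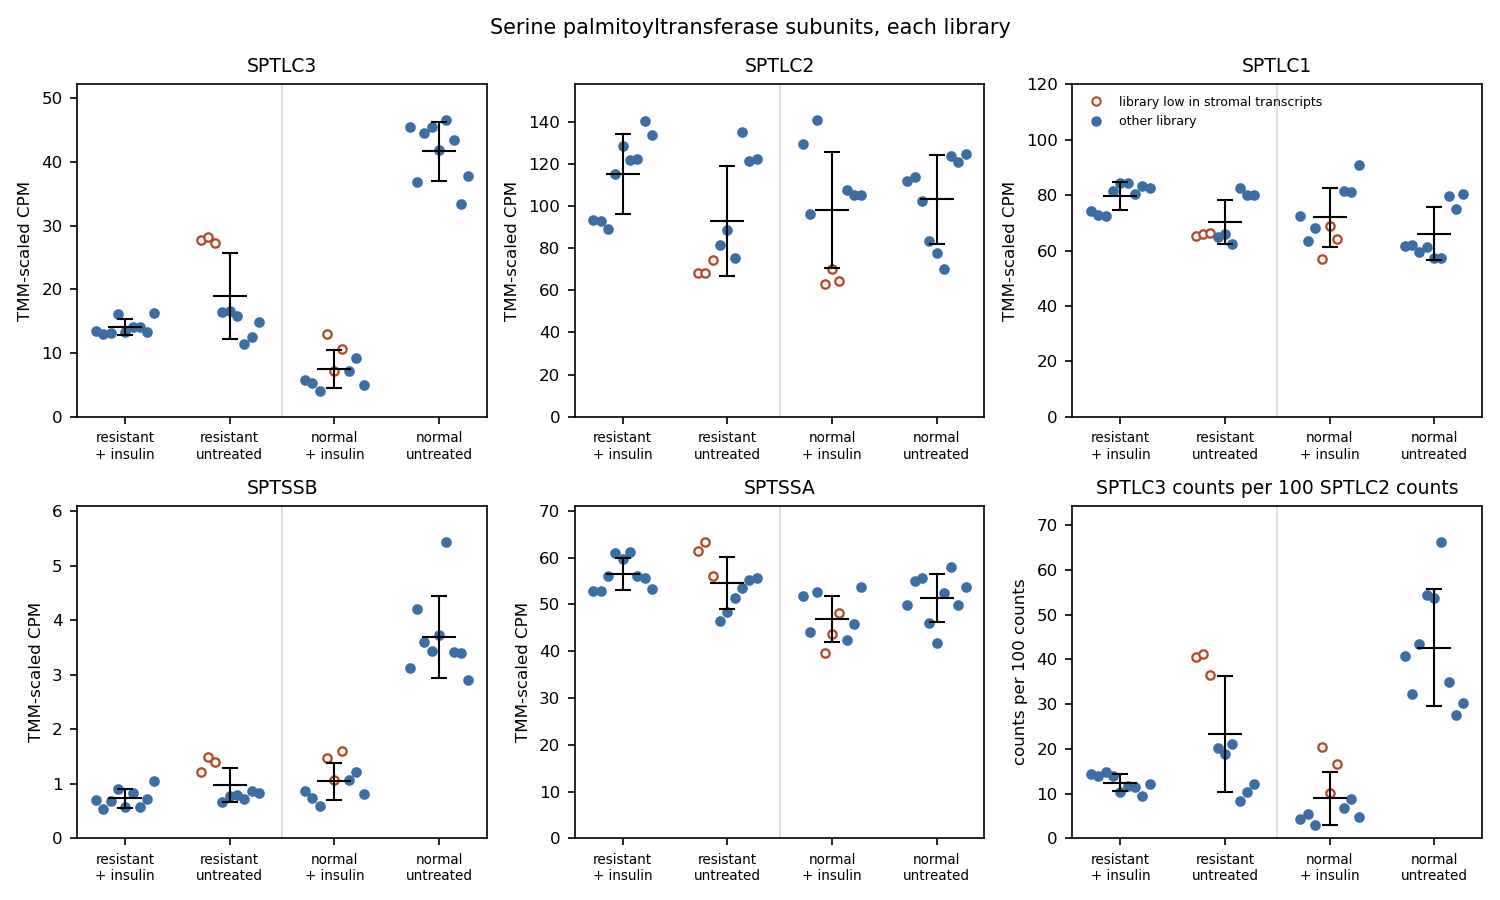
TMM-scaled CPM (y axis) of 5 SPT subunits, and SPTLC3 counts per 100 SPTLC2 counts, in each library of the 4 groups (x axis), with mean and SD of 9 libraries. Open circles are the 6 libraries low in stromal transcripts. SPTLC3 lies at 33.4 to 46.5 CPM in untreated cells of normal medium and at or under 28.1 CPM elsewhere, SPTSSB is also highest there, and SPTLC1, SPTLC2 and SPTSSA overlap between all groups.

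SPTSSB, the small subunit known to favour longer acyl-CoA, is not one of the 10 genes but was on the list of other sphingolipid genes, and it was also highest in untreated cells of normal medium. It was a low transcript, with 33 to 644 counts per library. Its lowest, median and highest levels were 0.544, 0.711 and 1.05 CPM in stimulated and 0.668, 0.841 and 1.5 CPM in untreated cells of resistant medium. In normal medium they were 0.587, 1.07 and 1.61 CPM in stimulated and 2.91, 3.43 and 5.45 CPM in untreated cells. The log2 fold change with insulin in normal medium was -1.82 ± 0.19, and -2.18 ± 0.17 without the 6 libraries. SPTSSB was lower with resistant medium in untreated cells, with a log2 fold change of -1.94 ± 0.19 (edgeR adjusted p = 1.57e-09) and of -2.29 ± 0.17 without the 6. In stimulated cells the medium effect was -0.57 (edgeR adjusted p = 0.0208) and no longer passed without the 6, at -0.18 ± 0.18 (edgeR adjusted p = 0.465). SPTSSA, the other small subunit, averaged 56.5 ± 3.38 and 54.6 ± 5.53 CPM in stimulated and untreated cells of resistant medium, and 46.9 ± 4.97 and 51.4 ± 5.09 CPM in stimulated and untreated cells of normal medium.

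ORMDL3, the regulator that restrains SPT, was also lower with insulin in normal medium, by far less than SPTLC3. Its lowest, median and highest levels were 85.9, 98.3 and 104 CPM in stimulated and 93.2, 106 and 118 CPM in untreated cells of resistant medium. In normal medium they were 73.7, 81.3 and 92.5 CPM in stimulated cells, against 95.0, 101 and 115 CPM in untreated cells, with no overlap between those 2 groups. The log2 fold change there was -0.28 ± 0.05, and -0.44 ± 0.06 without the 6 libraries. Within the batches of 11 April, 22 April and 24 May it was -0.38, -0.42 and -0.23. Scaling to hepatocyte genes without the 6 libraries turned it to 0.08, where the median of all genes was 0.51. In stimulated cells ORMDL3 was higher with resistant medium, with a log2 fold change of 0.21 ± 0.06 (edgeR adjusted p = 0.0044), and of 0.35 ± 0.06 without the 6 (edgeR adjusted p = 5.65e-05). Inside the batches of 11 and 22 April that change was 0.37 and 0.26 (edgeR adjusted p = 0.0212 and 0.114), and with each set of 3 replicates summed it was 0.29 and did not pass (edgeR adjusted p = 0.113). Without any 1 of 9 libraries it was 0.32 (replicates 7 to 9 of either untreated group, or 2, 5 or 9 of the stimulated resistant group). The insulin effects of the 2 media differed by 0.12 ± 0.08 (edgeR adjusted p = 0.273) with all libraries and by 0.37 ± 0.09 without the 6 (edgeR adjusted p = 0.00225).

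KDSR, the reductase of the next step, had its highest mean in stimulated cells of normal medium. Its lowest, median and highest levels were 50.3, 52.1 and 54.7 CPM in stimulated and 39.4, 49.5 and 54.5 CPM in untreated cells of resistant medium, and 49.5, 67.7 and 98.2 CPM in stimulated and 46.9, 53.1 and 78.6 CPM in untreated cells of normal medium. The spread was narrow in stimulated cells of resistant medium and wide in both groups of normal medium. KDSR fell with resistant medium in stimulated cells, with a log2 fold change of -0.44 ± 0.12 (edgeR adjusted p = 0.00304), and of -0.55 ± 0.11 without the 6 libraries (edgeR adjusted p = 0.000254). It did not pass in the 11 April or 22 April batch, at -0.22 and -0.46 (edgeR adjusted p = 0.419 and 0.181), nor without replicate 4 of stimulated cells in resistant medium, at -0.32 (edgeR adjusted p = 0.0548), nor with each set of 3 replicates summed, at -0.30 (edgeR adjusted p = 0.433). Scaled to hepatocyte genes it was 0.05, where the median of all genes was 0.53. The log2 fold change with insulin in normal medium was 0.23 ± 0.11, and 0.27 ± 0.10 without the 6, and by batch it was -0.11 (11 April), 0.14 (22 April) and 0.30 (24 May). In untreated cells the medium gave -0.30 ± 0.11 (edgeR adjusted p = 0.0511), and -0.20 ± 0.10 without the 6 (edgeR adjusted p = 0.17).

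CERS6 is a ceramide synthase known for ceramides with a palmitoyl chain. It had a lowest, median and highest level of 43.1, 46.3 and 55.3 CPM in stimulated and 44.5, 49.4 and 67.5 CPM in untreated cells of resistant medium. In normal medium it had 62.0, 69.9 and 102.5 CPM in stimulated cells, against 41.4, 51.2 and 54.6 CPM in untreated cells. Every stimulated library of normal medium was above every library of the other normal group and of the stimulated resistant group. The log2 fold change with insulin was 0.53 ± 0.08 in normal medium and 0.30 ± 0.06 without the 6 libraries, and 0.42, 0.38 and 0.60 within the 3 batches (11 April, 22 April, 24 May). Leaving out replicate 5 of the stimulated normal group, the highest library, gave 0.34. In stimulated cells CERS6 fell with resistant medium, with a log2 fold change of -0.65 ± 0.09 (edgeR adjusted p = 4.79e-07), and of -0.44 ± 0.06 without the 6 (edgeR adjusted p = 1.97e-06). By batch it was -0.50 on 11 April and -0.59 on 22 April (edgeR adjusted p = 0.0125 and 0.0627), and with each set of 3 replicates summed it was -0.51 (edgeR adjusted p = 0.0463). Scaled to hepatocyte genes this change was -0.04 and did not pass (edgeR adjusted p = 0.779), where the median of all genes was 0.53.

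The insulin effect on CERS6 differed between the media. The effect in resistant medium minus that in normal medium, called the interaction here, was -0.72 ± 0.12 on the log2 scale (edgeR adjusted p = 2.64e-05), and -0.34 ± 0.08 without the 6 libraries (edgeR adjusted p = 0.00444). It uses the libraries of the comparison that chose the genes. By batch (11 and 22 April) it was -0.58 and -0.70 (edgeR adjusted p = 0.0852 and 0.236). With each set of 3 replicates summed it was -0.58 and did not pass (edgeR adjusted p = 0.212). With insulin in resistant medium alone the log2 fold change was -0.20 ± 0.09 (edgeR adjusted p = 0.169).

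CERS2, the synthase of very-long-chain ceramides and the major one in liver, was among the most abundant of the 10 genes per kilobase, with a mean of 54.4 and 60.8 CPM per kilobase in stimulated and untreated cells of resistant medium, and 76.2 and 60.1 CPM per kilobase in stimulated and untreated cells of normal medium. It had 175, 182 and 189 CPM in stimulated and 179, 189 and 242 CPM in untreated cells of resistant medium, and 201, 238 and 310 CPM in stimulated and 190, 200 and 215 CPM in untreated cells of normal medium (lowest, median, highest). The 6 libraries low in stroma held 227 to 310 CPM, against 175 to 270 CPM in the other 30. With insulin in normal medium the log2 fold change was 0.35 ± 0.07 with all libraries and 0.10 ± 0.05 without the 6, and 0.36, 0.15 and 0.43 within the 3 batches. Leaving out any 1 of 20 libraries gave 0.19 to 0.23 there: all 9 of the stimulated resistant group, replicates 7 to 9 of untreated cells in resistant medium, 2 and 4 to 6 of stimulated and 4 and 7 to 9 of untreated cells in normal medium. In stimulated cells CERS2 fell with resistant medium, with a log2 fold change of -0.50 ± 0.08 (edgeR adjusted p = 3.09e-06), and of -0.25 ± 0.05 without the 6 (edgeR adjusted p = 0.000288). By batch (11 and 22 April) that change was -0.49 and -0.31 (edgeR adjusted p = 0.0163 and 0.239), and scaled to hepatocyte genes it was 0.12, where the median of all genes was 0.53. In untreated cells the medium effect was 0.02 ± 0.07 (edgeR adjusted p = 0.908), and without the 6 it turned to -0.15 ± 0.05 (edgeR adjusted p = 0.0178). The interaction was -0.51 ± 0.10 (edgeR adjusted p = 0.000262) with all libraries and -0.10 ± 0.07 without the 6 (edgeR adjusted p = 0.365), so the call was lost without them. By batch the interaction was -0.59 and -0.34 (edgeR adjusted p = 0.088 and 0.46). With each set of 3 replicates summed neither the medium effect in stimulated cells, at -0.40, nor the interaction, at -0.42, passed (edgeR adjusted p = 0.12 and 0.386).

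CERS5, a further long-chain synthase, averaged 49.8 ± 5.70 and 43.6 ± 7.27 CPM in stimulated and untreated cells of resistant medium, and 46.7 ± 5.86 and 44.5 ± 5.74 CPM in stimulated and untreated cells of normal medium. All its ranges overlapped, and its log2 fold changes lay between -0.02 and 0.10 in the 4 pairwise comparisons, none past the threshold with all libraries or with the 30.

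DEGS1, the desaturase that completes ceramide, varied widely between libraries of a group. It had a lowest, median and highest level of 88.1, 118 and 124 CPM in stimulated and 36.4, 68.0 and 132 CPM in untreated cells of resistant medium, and 30.1, 95.7 and 144 CPM in stimulated and 63.2, 115 and 124 CPM in untreated cells of normal medium. The 6 libraries low in stroma held 30.1 to 40.0 CPM, below all of the other 30, at 63.2 to 144 CPM. The log2 fold changes were -0.26 ± 0.26 with insulin in normal medium, 0.36 ± 0.28 with insulin in resistant medium (edgeR adjusted p = 0.42), and -0.36 ± 0.26 and 0.27 ± 0.28 for the medium in untreated and stimulated cells (edgeR adjusted p = 0.368 and 0.469). With the 6 left out, all 4 were between -0.11 and -0.01.

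UGCG, which opens the glucosylceramide branch, was also low in the 6 libraries, at 24.4 to 38.2 CPM against 34.9 to 109 CPM in the 30. Its lowest, median and highest levels were 35.7, 38.3 and 67.8 CPM in stimulated and 24.4, 37.8 and 70.6 CPM in untreated cells of resistant medium, and 30.4, 67.1 and 109 CPM in stimulated and 38.8, 46.8 and 55.6 CPM in untreated cells of normal medium. Replicates 7 to 9 of stimulated cells in normal medium, at 91.2 to 109 CPM, were the highest of all libraries. With insulin in normal medium the log2 fold change was 0.55 ± 0.23, and 0.73 ± 0.19 without the 6. It was 0.50 and 0.64 in the April batches and -0.34 in the 24 May batch. In stimulated cells the medium effect was -0.42 ± 0.24 (edgeR adjusted p = 0.173), and it passed without the 6 at -0.65 ± 0.19 (edgeR adjusted p = 0.00888).

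**Figure D2:**
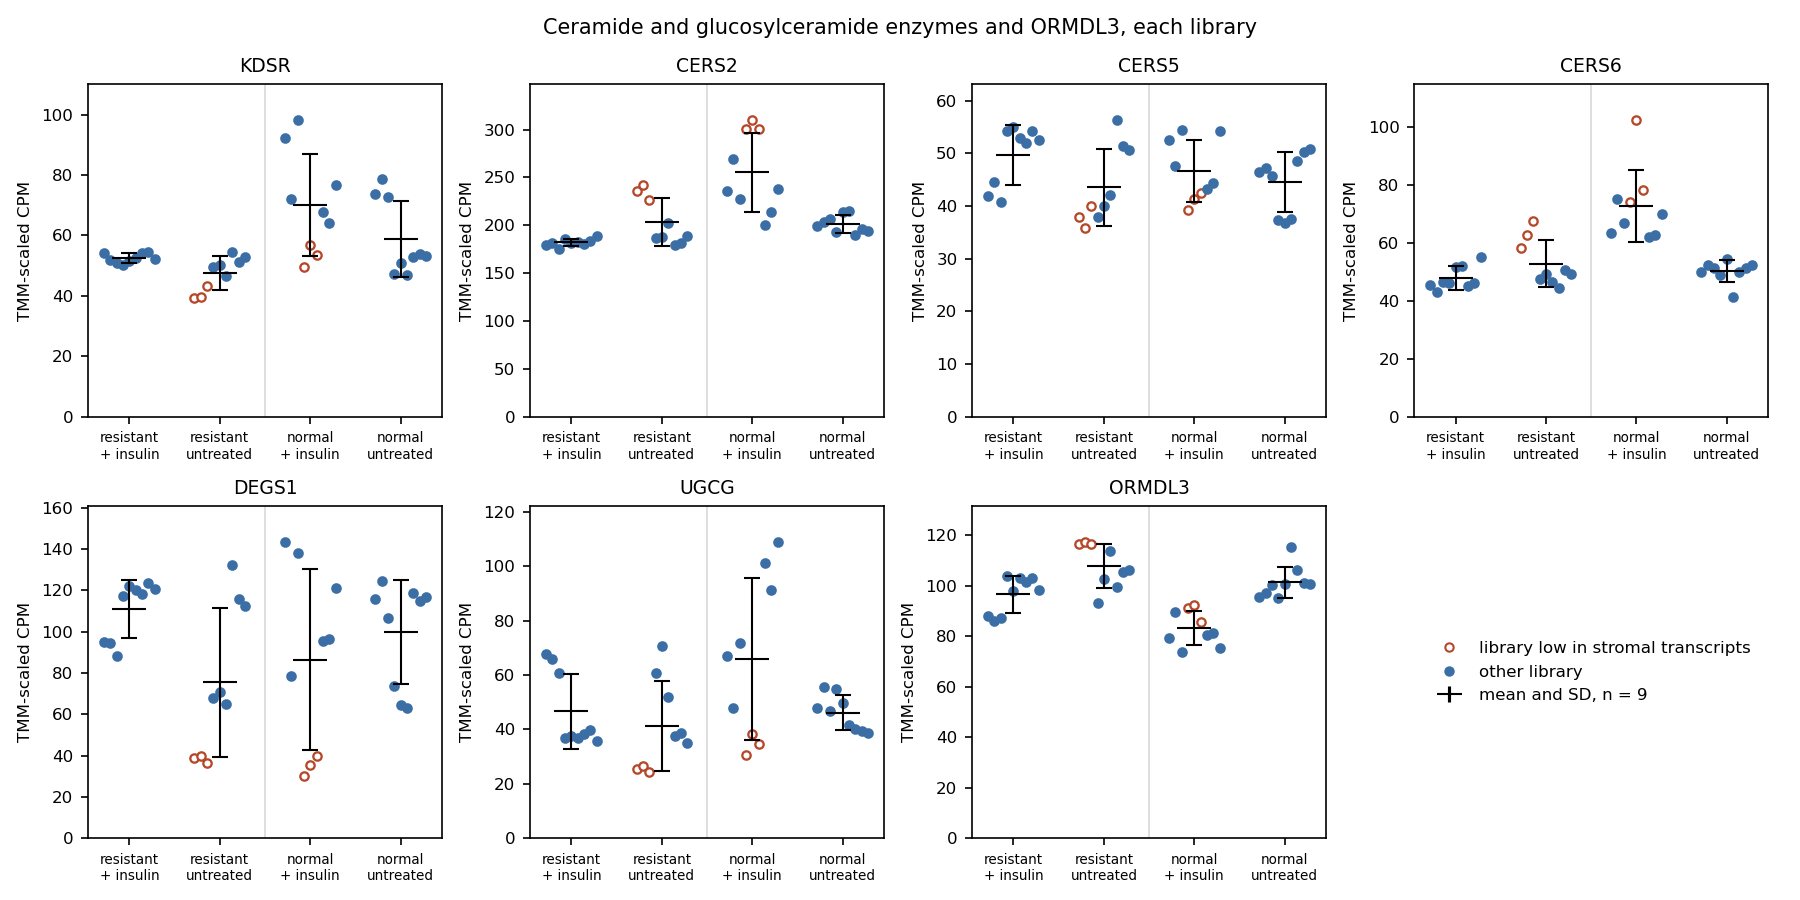
TMM-scaled CPM (y axis) of KDSR, 3 ceramide synthases, DEGS1, UGCG and ORMDL3 in each library of the 4 groups (x axis), with mean and SD of 9 libraries. Open circles are the 6 libraries low in stromal transcripts. DEGS1 lies at 30.1 to 40.0 CPM in those 6 and at 63.2 CPM or more in the others, while CERS6 is at 62.0 CPM or more in all stimulated libraries of normal medium.

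Set against all genes, the 10 did not move as a block. With insulin in normal medium 2 of the 10 were higher and 2 lower at an edgeR adjusted p under 0.05, where 35.2% of all 17983 tested genes passed (24.9% higher and 10.2% lower), a count from which nothing is read because that comparison chose the genes. The median log2 fold change was 0.07 over the 10 and 0.03 over all genes. That split of all calls, 70.9% of them higher, depended on scaling and libraries, being 57.3% with DESeq2, 58.2% with averaged TMM factors, 48.1% with upper-quartile factors, 82.7% scaled to hepatocyte genes and 46% without the 6. With the 30 libraries KDSR, CERS6 and UGCG were higher and SPTLC3 and ORMDL3 lower, beside 33.4% of all genes.

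With insulin in resistant medium none of the 10 passed, and 0% of all genes did by edgeR in the main fit. At an unadjusted p under 0.05 there were 4490 genes, of which 4 were among the 10 (SPTLC3, CERS2, CERS6 and ORMDL3, all lower), and DESeq2 called 89 genes but none of the 10. The 0% depended on the fit. Other edgeR fits called 2063 genes with no batch term, 2674 with replicate number as a term and 4012 with only these groups fitted. Over the 30 libraries 964 genes had an unadjusted p under 0.05, none of them among the 10, and the adjusted p-values of the 10 were 0.933 to 0.997. The medians of the log2 fold changes were 0.08 over the 10 and 0.01 over all genes.

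In untreated cells the medium comparison passed for SPTLC3 alone of the 10, lower, beside 21.9% of all genes (13.3% higher and 8.62% lower). The medians were -0.08 over the 10 and -0.04 over all genes. In stimulated cells 2 of the 10 were higher (SPTLC3 and ORMDL3) and 3 lower (KDSR, CERS2 and CERS6), 5 in all, beside 38.3% of all genes (12% higher and 26.3% lower), with medians of 0.05 and -0.01. With the 30 libraries 3 of the 10 passed in untreated cells (SPTLC1 higher, SPTLC3 and CERS2 lower), beside 26.7% of all genes. In stimulated cells 6 did, with UGCG as the added one, beside 36% of all genes. The count of 5 of 10 is not far from the 38.3% of all genes. None of the 20 stromal markers passed in either medium comparison, with median log2 fold changes of -0.22 in untreated and 0.77 in stimulated cells. The 6 libraries low in stroma widen the spread within 2 of the groups, so the lack of calls does not show equal stromal levels. Of the 20 hepatocyte markers 1 was higher and 6 lower in untreated cells, and 1 was higher and 15 lower in stimulated cells. The part of either list in these counts was not tested. Of all calls 60.6% were higher in untreated and 31.3% in stimulated cells, but 40% and 49.4% without the 6 and 95.4% and 93.4% scaled to hepatocyte genes. In stimulated cells DESeq2 gave 46.5%, averaged TMM factors 43.2% and upper-quartile factors 49.7%. The interaction called SPTLC3 upward and CERS2 and CERS6 downward, 3 of 10, beside 29.8% of all genes (6.22% higher and 23.5% lower). Of its calls 20.9% were higher, against 39.7% with DESeq2, 35.5% with averaged TMM factors, 36.7% with upper-quartile factors, 36.1% scaled to hepatocyte genes and 57% without the 6. With the 30 libraries it called SPTLC3 and ORMDL3 upward and CERS6 downward, beside 21.8%. Both medium comparisons and the interaction share libraries with the insulin comparison in normal medium, so nothing is read from the SPTLC3 calls in them.

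Ranges that did not overlap between the groups were found for SPTLC3, CERS6 and ORMDL3 with insulin in normal medium, beside 8.45% of all genes. Nothing is read from that count, because the comparison chose the genes. In resistant medium insulin separated none of the 10, beside 0.217%. The medium separated SPTLC3 in untreated cells, beside 5.47%, and SPTLC3, CERS2 and CERS6 in stimulated cells, beside 12.2%. The same genes were separated over the 30 libraries, with KDSR added in stimulated cells, beside 12.1%, 0.35%, 8.37% and 15.1% of all genes for insulin in normal and resistant medium and for the medium in untreated and stimulated cells.

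**Figure D3:**
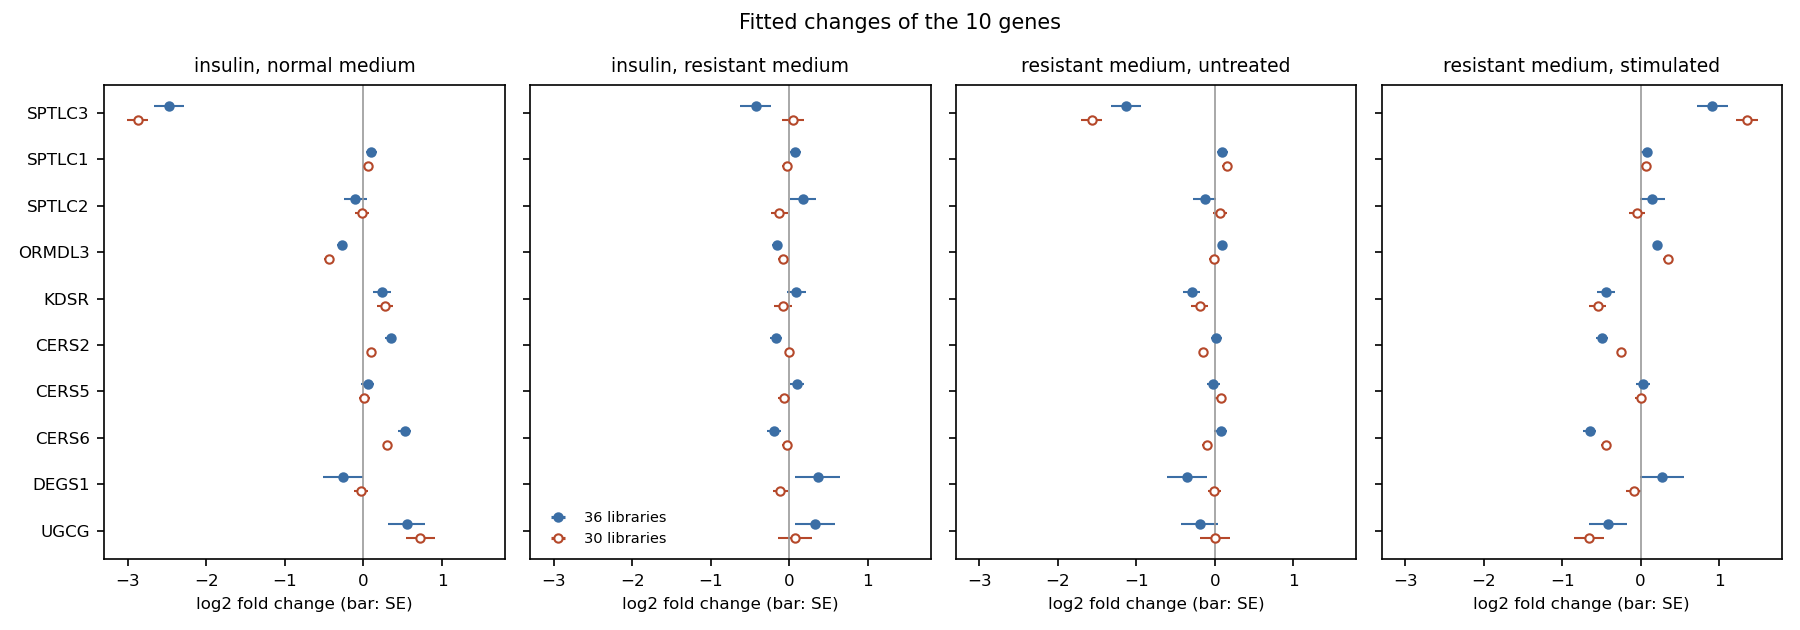
Log2 fold changes (x axis, bars are SE) of the 10 genes (y axis) with insulin in normal and in resistant medium, and with resistant against normal medium in untreated and in stimulated cells. Filled points use all 36 libraries and open points the 30 with stromal transcripts. SPTLC3 lies at -2.47 and -1.13 with insulin in normal medium and with resistant medium in untreated cells, and at 0.91 with resistant medium in stimulated cells. With insulin in resistant medium the open points of all 10 genes are between -0.13 and 0.07.

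The rest of the pathway was read from 54 further sphingolipid genes, of which 51 passed the filter on low counts. With insulin in normal medium 10 were higher and 6 lower, beside 35.2% of all genes, a comparison that shared its libraries with the choice of the 10 genes. In resistant medium 0 passed, beside 0% of all genes. Resistant medium gave 15 higher and 3 lower in untreated cells, beside 21.9% of all genes, and 15 higher and 8 lower in stimulated cells, beside 38.3%. The medians over these genes were -0.01, -0.04, 0.09 and 0.15, against 0.03, 0.01, -0.04 and -0.01 over all genes. Over the 30 libraries the counts were 5 higher and 11 lower, 0, 15 and 7, and 14 and 5, beside 33.4%, 0%, 26.7% and 36% of all genes. Of the 4 SPT small subunits and ORMDL regulators, 2 were lower with insulin in normal medium (SPTSSA and SPTSSB), beside 10.2% of all genes. In stimulated cells resistant medium raised SPTSSA and ORMDL2, beside 12% of all genes, and lowered SPTSSB and ORMDL1, beside 26.3%. Without the 6 libraries the falls of SPTSSB and ORMDL1 no longer passed. Of 4 tested ceramidases, which cut ceramide, 3 were higher with insulin in normal medium (ASAH1, ASAH2 and ACER3, beside 24.9% of all genes) and 3 with resistant medium in untreated cells (ASAH1, ASAH2 and ACER2, beside 13.3%). Without the 6 libraries ASAH1 passed in neither, which left 2 of 4 in each. With resistant medium in stimulated cells ACER2 was higher and ACER3 lower, beside 12% and 26.3% of all genes. The interaction called ASAH1 and ASAH2 downward, beside 23.5%. Of the calls in these last 2 comparisons only that of ACER2 remained without the 6 libraries. Of 9 genes of glycosphingolipid breakdown, resistant medium raised 2 in untreated cells (HEXA and ARSA), beside 13.3% of all genes, and lowered none there. Both also passed over the 30 libraries, where PSAP was added.

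In normal medium, besides SPTSSB, the named genes with insulin were SPNS2, an exporter of sphingosine 1-phosphate, at 1.74 ± 0.24 on the log2 scale, SMPD2, a neutral sphingomyelinase, at 0.52 ± 0.08, and SMPD3, another neutral sphingomyelinase, at -1.28 ± 0.21. With the 6 left out, these were 1.30, 0.33 and -1.35. SMPD3 had 0.496 to 0.893 CPM in stimulated cells, against 0.966 to 2.52 CPM in untreated cells. SPNS2 had 0.296 to 1.24 CPM in stimulated cells, against 0.136 to 0.426 CPM in untreated cells, so both are low transcripts.

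With resistant medium in untreated cells SMPD2 rose by 0.70 ± 0.08 (edgeR adjusted p = 4e-08), ARSA, the lysosomal sulfatase of sulfatide, by 0.57 ± 0.07 (edgeR adjusted p = 1.93e-07), and S1PR4, a sphingosine 1-phosphate receptor, by 1.73 ± 0.24 (edgeR adjusted p = 1.19e-06). ARSA had 28.3 to 39.5 CPM in untreated cells of resistant medium and 20.7 to 23.4 CPM in untreated cells of normal medium, with no overlap. S1PR4 was a low transcript, at 0.319 to 0.845 CPM in untreated cells of resistant medium and 0.0812 to 0.28 CPM in untreated cells of normal medium. In stimulated cells S1PR4 rose by 1.84 ± 0.28, GM2A, the activator that presents a ganglioside for cleavage, by 0.65 ± 0.12 and ARSA by 0.41 ± 0.08 (edgeR adjusted p = 2.93e-06, 7.08e-05 and 5.58e-05). CERT1, which carries ceramide to the Golgi, fell by 0.27 on the log2 scale there (edgeR adjusted p = 1.42e-05). Without the 6 libraries all of these changes kept their direction and passed the threshold.

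The insulin effects of the 2 media differed for SPTSSB by 1.37 ± 0.27 (edgeR adjusted p = 0.000186), for SPNS2 by -2.37 ± 0.35 (edgeR adjusted p = 5.91e-06), for SMPD2 by -0.80 ± 0.12 (edgeR adjusted p = 4.12e-06) and for ASAH2, the neutral ceramidase, by -0.96 ± 0.19 (edgeR adjusted p = 0.000166). Over the 51 genes 3 of these differences were upward and 13 downward. Beside them, 29.8% of all genes passed. Over the 30 libraries they were 8 upward and 5 downward, SPTSSB was 2.11, SPNS2 -1.62 and SMPD2 -0.46, each past the threshold, and ASAH2 no longer passed, at -0.33 ± 0.12 (edgeR adjusted p = 0.053).

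**Figure D4:**
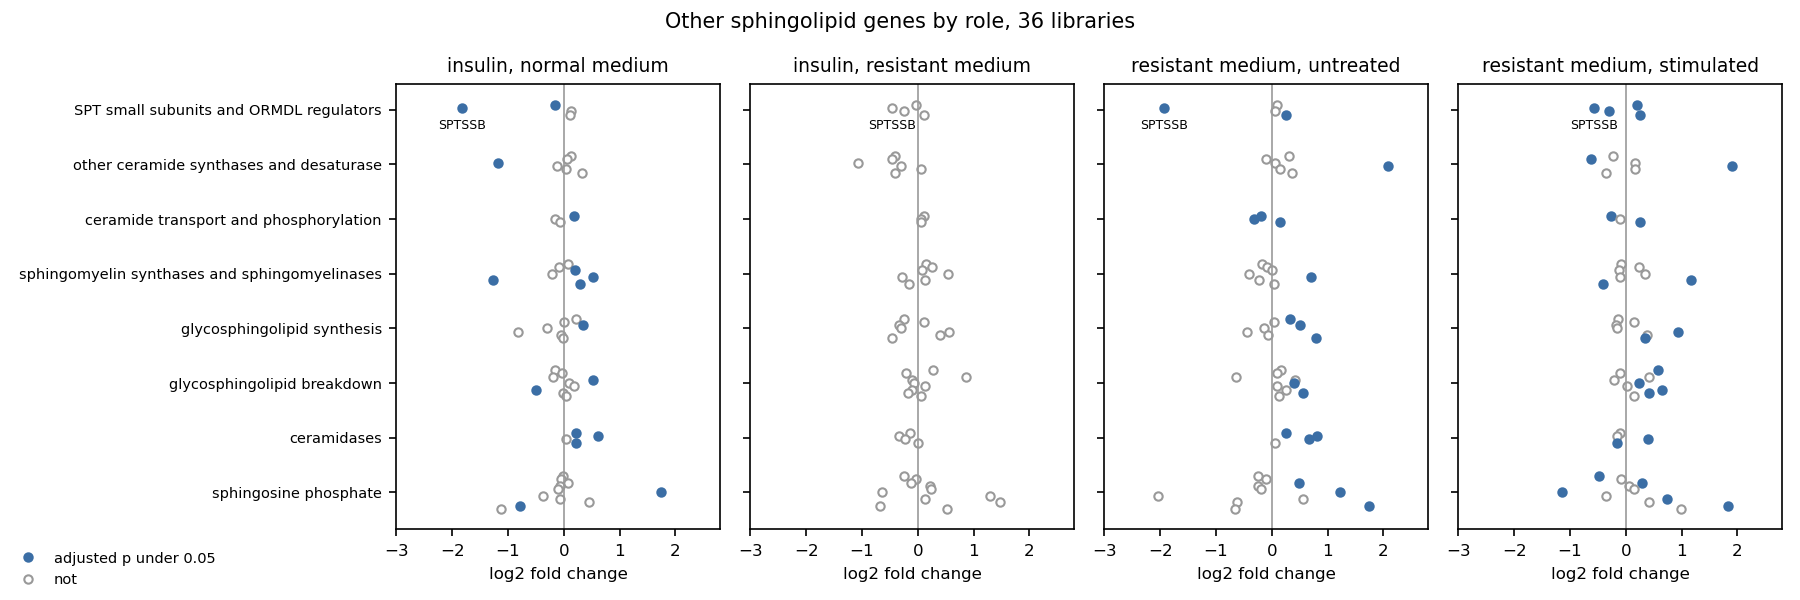
Log2 fold changes (x axis) of the 51 other tested sphingolipid genes, grouped by role (y axis), in the same 4 comparisons with all 36 libraries. Filled points passed an edgeR adjusted p under 0.05 and open ones did not. SPTSSB lies at -1.82 with insulin in normal medium and at -1.94 with resistant medium in untreated cells, and no point is filled for insulin in resistant medium.

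Per kilobase of exon CERS2 and DEGS1 had the highest mean levels of the 10 genes in each group, and their ranges overlapped in each. In untreated cells of normal medium CERS2 had a mean of 60.1 CPM per kilobase, followed by DEGS1 at 47.5, ORMDL3 at 28.3 and SPTLC1 at 27.4, then CERS5 at 15.6, SPTLC2 at 12.6, UGCG at 11.5 and KDSR at 10.8, with CERS6 at 6.95 and SPTLC3 at 6.76. ORMDL3 and SPTLC1 did not differ beyond their spread, with SDs of 1.74 and 3.98, and neither did CERS6 and SPTLC3, with SDs of 0.516 and 0.749. In stimulated cells of normal medium CERS6 stood at 10.1 and SPTLC3 at 1.21 CPM per kilobase.

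Over the 36 libraries the genes whose log2 CPM tracked SPTLC3 most closely were SMLR1, ACSM3, HP, PDZK1 and FMO5, with Pearson r of 0.98, 0.97, 0.97, 0.97 and 0.97 among 13735 genes with a mean of at least 1 CPM. Over the 30 libraries with stromal transcripts the same genes had r of 0.98, 0.98, 0.97, 0.98 and 0.98. HP encodes haptoglobin, a plasma protein made by liver, ACSM3 a medium-chain acyl-CoA synthetase, FMO5 a flavin monooxygenase and PDZK1 a scaffold of membrane transporters. Among the 10 genes ORMDL3 was closest, with r of 0.67 at rank 408, and the other 8 had r between -0.46 and -0.12. The libraries share group means, batch and stromal share, so these values are descriptions.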

How the data were processed

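The expected counts per Ensembl gene of 36 libraries were deposited by the authors as 1 table of 57771 genes, unscaled. STAR, Salmon and the GRCh37 build are named, per the submitters' processing notes, with versions not given in the sources used here. Per the labels the RNA was poly-A selected and the libraries strand-specific. Estimates were rounded to whole counts (15.5% of values were not whole), and symbols matched 51994 gene IDs (90%).

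The 17983 genes that passed filterByExpr were tested together with edgeR 4.0.16 in R 4.3.3, by its robust quasi-likelihood test with TMM scaling, the 4 groups and the labelled batch as terms, and Benjamini-Hochberg adjustment with a threshold of 0.05. DESeq2 1.42.0 was an alternative. The others were scaling, filters, batch term, replicate block, groups fitted, single batches, summed sets of 3 replicates, and leaving out single libraries or the 6 low in stromal markers. The test was checked on simulated data. Replicates differed by more than sampling noise, with a chi-square per gene of at least 4.19 in all 144 pairs.

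Same-numbered libraries of the labels deviated together with insulin in normal medium (r of 0.19 to 0.51 in 9 of 9 pairs). The main fit did not use these pairs, which were seen in the data, and only the alternative fit with the replicate block did. The 10 genes and the other lists were chosen with earlier results of these data known. The named pathway genes were up to 4 per comparison, those with the lowest p-values past the threshold. The SPTLC1, SPTLC2 and SPTLC3 coding sequences came from the GENCODE 29 primary assembly annotation and transcripts on GRCh38. The exon lengths behind the levels per kilobase came from the GENCODE 29 basic annotation on GRCh38, while the submitters name GRCh37 for the counts. Some protein and promoter sequences were not used here.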

Additional observations from a re-analysis of the deposited data

Results flagged for a closer look

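CERS6 stood at 102.5 CPM in replicate 5 of stimulated cells in normal medium, far above the other 8 libraries of that group, with a gap to the next library of 0.599 of the group's range. It stood at 41.4 CPM in replicate 6 of untreated cells in normal medium, below the other 8, with a gap of 0.581 of the range. These were the 2 such cases in 44 sets of values, past Dixon's 95% critical value for 9 samples, and chance alone gives about 1 in 20.

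The insulin effect differed between resistant and normal medium for 3 of the 10 genes with all libraries, beside 29.8% of all genes. The difference was 2.05 on the log2 scale for SPTLC3, -0.51 for CERS2 and -0.72 for CERS6. For SPTLC3 it is a description, because the insulin effect in normal medium chose the gene. With each set of 3 replicates summed neither the CERS2 nor the CERS6 difference passed. Without the 6 libraries low in stromal markers the CERS2 difference no longer passed the threshold.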

How the results depend on the processing

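Each value below is a count of the 10 genes past the threshold, of the 51 other sphingolipid genes, or the log2 fold change of a named gene. SPTLC3 is counted among the 10, but nothing is read from its calls where the libraries that chose it enter. With all libraries the 10 genes gave 4 (insulin, normal medium), 0 (insulin, resistant medium), 1 (medium, untreated), 5 (medium, stimulated) and 3 (interaction). In untreated cells the medium count was 2, beside 3278 to 4357 of all genes, with upper-quartile or averaged TMM scaling (the averaging chosen after seeing the data), with at least 1 CPM in 9 libraries, with no batch term or with DESeq2. Without the 6 libraries low in stroma it was 3, SPTLC3 moved to -2.88 (insulin, normal medium) and 2.93 (interaction), and CERS2 reversed to -0.15 (untreated). Scaled to hepatocyte genes the counts were 5 (untreated, beside 6476 of all genes) and 1 (interaction, with 6 other genes, beside 2145 of all genes), the SPTLC3 interaction 2.46, and KDSR and CERS2 reversed to 0.049 and 0.12 (stimulated). With both, counts were 9 with 41 other genes (insulin, normal medium), 10 with 46 (untreated) and 9 with 31 (interaction), the SPTLC3 interaction was 2.47 and ORMDL3 reversed to 0.079 (insulin, normal medium). Beside those counts, 12901, 14702 and 9345 of all genes passed. Also reversed were SPTLC2 0.74, KDSR 0.49, CERS5 0.75, DEGS1 0.67 and UGCG 0.67 (untreated), and SPTLC2 -0.60, CERS5 -0.56 and DEGS1 -0.58 (interaction). That scaling moved the median of all genes to 0.51, 0.05, 0.65, 0.21 and -0.45 in the 5 comparisons.

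Insulin in resistant medium gave 1 of the 10 and 8 others with no batch term, and 4 and 14 with only the groups compared, a fit that gave 9 others for insulin in normal medium and 15 for the medium in stimulated cells. Of all genes, 2063 and 4012 passed with insulin in resistant medium in these fits. The second fit passed 4691 for insulin in normal medium and 4670 for the medium in stimulated cells. With no filter the interaction called 9 others, beside 4192 of all genes. In the 11 April batch counts were 1 and 1 (insulin, normal medium), 0 and 2 (untreated), 3 and 7 (stimulated) and 0 and 1 (interaction), and SPTLC3 no longer passed at -0.81 (untreated) and 0.91 (stimulated). Of all genes 866, 375, 2890 and 636 passed there, in the same order of comparisons. In the 22 April batch counts were 2 and 3, 0 and 5, 1 and 3, and 0 and 0, with SPTLC3 at -1.10 (untreated), beside 950, 611, 1105 and 4 of all genes. The 24 May batch gave 8 others in untreated cells, beside 1808 of all genes, and it held no stimulated library of resistant medium for the other comparisons. With each set of 3 replicates summed, counts were 1 and 2, 0 and 3, 1 and 3, and 0 and 0, and SPTLC3 was -1.15 (untreated) and 0.96 (stimulated). Only 711, 488, 950 and 5 of all genes passed with summed sets, so the interaction called almost no gene anywhere. Fewer libraries entered these fits.

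The replicate block changed no call among the 10 genes with insulin in normal medium (4 with the block, 17 others, beside 6370 of all genes). In the other comparisons the numbers paired the libraries only in part, with 5, 5 and 2 of 9 pairs over 0.1. There r ran from -0.27 to 0.53 (insulin, resistant medium), -0.09 to 0.58 (untreated) and -0.20 to 0.15 (stimulated). The block raised the count of other genes with insulin in resistant medium to 7, beside 2674 of all genes. Leaving out single libraries gave 3 to 6, 0 to 1, 1 to 2, 4 to 6 and 3 to 4 of the 10 genes in the 5 comparisons, and 11 to 19, 0 to 11, 17 to 19, 18 to 23 and 6 to 18 of the others. The counts of all genes in these fits are not given here, so nothing is read from these ranges about the sphingolipid genes. SPTLC3 ran from -2.77 to -2.40, -0.51 to -0.30, -1.25 to -1.07, 0.82 to 1.13 and 1.96 to 2.29. KDSR in untreated cells passed in 18 of 36 such fits, the ORMDL3 interaction in 17 and SPTLC1 in stimulated cells in 13. Without replicate 7 of untreated cells in resistant medium ORMDL3 passed with insulin in that medium (-0.19, edgeR adjusted p = 0.0399), and so did 11 others. In the main fit the lowest edgeR adjusted p of any gene in that comparison was 0.0995. The cause of these moves was not tested. Over the fits other than those that left out single libraries, 615 of 710 values counted as unchanged. Those with a p-value kept their side of the threshold, and those without moved by less than the SD within groups. Among the 615, 76 changed sign. A further 12 reversed, which means a change of sign with a call in at least 1 of the fits compared.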
